A study of Mus musculus with 6 samples.

Results

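The phagocyte NADPH oxidase was followed through 5 genes of the deposited table, found by symbol and Ensembl identifier: Cybb and Cyba for the membrane cytochrome, Ncf1 and Ncf4 for cytosolic subunits, and Rac2 for the small GTPase. They are 5 of 56750 rows. All 5 passed the filter on low values (1 TPM or more in 3 or more of the libraries), as did 13496 genes in all. RNA was sequenced from cells sorted from the bone marrow of C57BL/6 mice as Lin- Sca1+ cKit+ (LSK), the fraction known to contain blood stem cells and multipotent progenitors. One group had colitis induced by 2.5% dextran sulfate sodium over 5 days (called DIC in the labels), the other was the control, and the labels give 3 mice and 3 libraries in each. The labels do not tie the libraries to separate mice, so each p-value reflects only how these libraries vary, which may be technical. They name no transgene and give neither age nor sex. The question was how gut inflammation alters expression in this marrow compartment.

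The oxidase moves electrons from cytosolic NADPH across a membrane to oxygen, which makes superoxide, the first product of the respiratory burst with which neutrophils and macrophages kill microbes. At rest the enzyme is in pieces: the cytochrome sits in the membrane, the cytosolic subunits wait as a complex, and Rac is held by a GDP dissociation inhibitor. Phosphorylation of the cytosolic subunits and loading of Rac with GTP bring the pieces together. In humans, loss of a subunit causes chronic granulomatous disease. Several of the genes are switched on as granulocytes and monocytes mature, and B cells also express the oxidase.

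The libraries were DIC 1, 2 and 3 and control 1, 2 and 4, numbered as in the table. TPM is a share of a library's transcripts after adjustment for their length and keeps no depth, so the number of reads behind a value is unknown. The genes of the sort were present, with Kit at 82.3 to 95.2 TPM in DIC and 54.2 to 99.5 TPM in control, and Ly6a, which encodes Sca1, at 15.5 to 23.8 TPM in DIC and 19.7 to 49.9 TPM in control. S100a8 and S100a9, which encode the calprotectin subunits of neutrophils and monocytes, were far above them, at 51010 to 105476 TPM in DIC and 10554 to 52974 TPM in control. The other 6 late neutrophil genes ranged from 6.95 to 5102 TPM in DIC and from 2.28 to 109 TPM in control, some of them below Kit. The 8 late neutrophil genes took 11.5% to 18.2% of all TPM in DIC, and 3.25%, 9.48% and 2.39% in controls 1, 2 and 4, and S100a8 and S100a9 made up 96.2% to 99.8% of these sums in DIC and 99.5% to 99.7% in control. The other 6 summed to 6908, 260 and 2688 TPM in DIC 1 to 3, against 105, 258 and 110 TPM in controls 1, 2 and 4, so that DIC 2 and control 2 were alike. In the share of the 8 genes, control 2 stood apart from the other controls and lay nearest to DIC 2, at 11.5%. Values below are therefore those of sorted marrow cells whose libraries also held transcripts of granulocytes. In such bulk samples, a different share of a cell type and a different amount of RNA per cell cannot be told apart.

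All 5 oxidase genes had higher mean levels in DIC, and none passed the test over all genes. The ratio of mean TPM, DIC over control, was 2.22 for Cybb, 1.85 for Ncf1, 1.32 for Ncf4, 1.21 for Rac2 and 1.18 for Cyba. With limma and Benjamini-Hochberg adjustment 0 of 5 were called, where 8 of 13496 genes, or 0.0593%, were called in either direction, 0.037% of them as higher and 0.0222% as lower. At an unadjusted p under 0.05, 3 of 5 were higher and 0 lower, against 6.43% of all tested genes that were higher and 13.8% that were lower. In either direction 20.2% of tested genes passed that level. Every DIC library lay above every control library for Cybb, Ncf1 and Ncf4, which is 3 of 5, against 7.08% of tested genes with such a separation upward and 18.4% downward. The median log2 fold change of the 5 was 0.41 and that of all tested genes -0.08, and 41.5% of tested genes had a positive one.

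**Figure D1:**
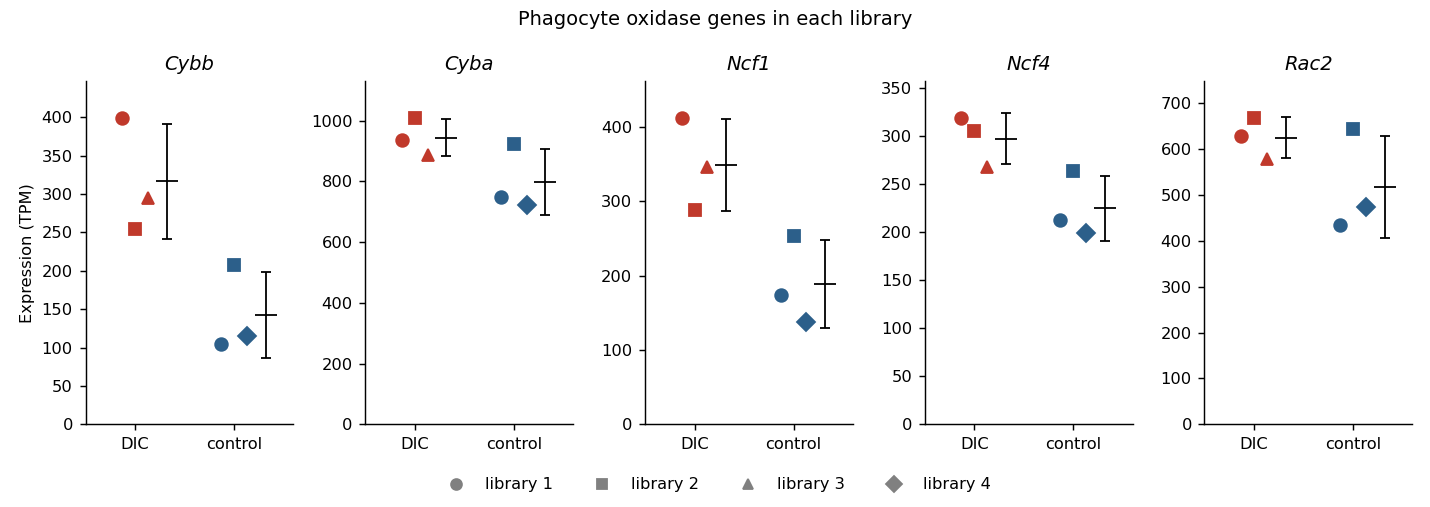
Expression in TPM (y axis, from 0) of the 5 oxidase genes in each library, DIC left of control; points are libraries, marker shapes give the library number (which pairs no samples), and bars show mean ± SD (n = 3). For Cybb, Ncf1 and Ncf4 the lowest DIC library lies above control 2, the highest control, while for Cyba and Rac2 control 2 lies within the DIC range.

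Cybb (ENSMUSG00000015340) encodes gp91phox, the flavocytochrome subunit that carries the electrons. It was at 399, 255 and 295 TPM in DIC 1 to 3, against 105, 207 and 115 TPM in controls 1, 2 and 4. DIC 1 was the highest library and controls 1 and 4 were the lowest, while DIC 2 and control 2 were neighbours. The log2 fold change was 1.19 ± 0.29 (SE, 95% interval 0.51 to 1.86), with a limma adjusted p = 0.212. That fold change stood at percentile 97.3 of all tested genes.

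Cyba (ENSMUSG00000006519) encodes p22phox, the partner chain that stabilises gp91phox and gives the cytosolic subunits their docking site. It was at 937, 1009 and 886 TPM in DIC 1 to 3, against 747, 924 and 723 TPM in controls 1, 2 and 4. The groups overlapped, because control 2 exceeded DIC 3. The log2 fold change was 0.25 ± 0.15 (SE, 95% interval -0.11 to 0.60; limma adjusted p = 0.381). It was 0.57 after quantile normalization and 0.45 after the neutrophil lists were left out and TPM rescaled (rescaling without neutrophil genes) (limma adjusted p = 0.240 and 0.273). That rescaling moved the median of all tested genes from -0.08 to 0.10. The TPM ratio of Cybb to Cyba was 0.426, 0.253 and 0.333 in DIC 1 to 3, against 0.141, 0.224 and 0.160 in controls 1, 2 and 4.

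Ncf1 (ENSMUSG00000015950) encodes p47phox, the organizer subunit whose phosphorylation lets the cytosolic complex bind p22phox. It was at 412, 289 and 346 TPM in DIC 1 to 3, against 174, 253 and 138 TPM in controls 1, 2 and 4. The order of libraries was nearly that of Cybb, with DIC 1 highest and DIC 2 next to control 2. The log2 fold change was 0.91 ± 0.24 (SE, 95% interval 0.35 to 1.48; limma adjusted p = 0.212), at percentile 95.5 of all tested genes.

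Ncf4 (ENSMUSG00000071715) encodes p40phox, which binds phosphatidylinositol 3-phosphate on phagosomes. It was at 319, 305 and 267 TPM in DIC 1 to 3, against 212, 263 and 199 TPM in controls 1, 2 and 4. The groups did not overlap, but DIC 3 and control 2 were 4.28 TPM apart. The log2 fold change was 0.41 ± 0.15 (SE, 95% interval 0.06 to 0.76; limma adjusted p = 0.218).

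Rac2 (ENSMUSG00000033220) encodes the blood-cell Rac GTPase, the main Rac of the oxidase in mouse neutrophils, which also drives actin assembly in cell movement. It was at 628, 667 and 577 TPM in DIC 1 to 3, against 433, 643 and 473 TPM in controls 1, 2 and 4. Control 2 lay above DIC 1 and DIC 3, and the other controls lay below every DIC library. The log2 fold change was 0.29 ± 0.18 (SE, 95% interval -0.12 to 0.71; limma adjusted p = 0.380). It was 0.59 after quantile normalization and 0.50 after rescaling without neutrophil genes (limma adjusted p = 0.269 and 0.291). Ncf4 and Rac2 both lie on chromosome 15 with 10 annotated protein-coding genes between them. Of the 7 of these that were tested, 2 had positive fold changes and 0 were called by limma.

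**Figure D2:**
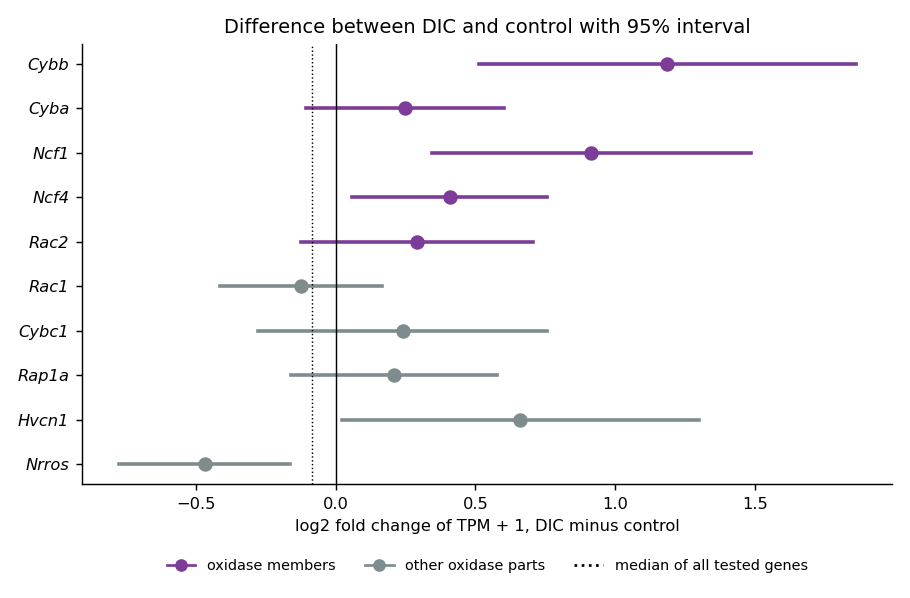
Log2 fold change of TPM + 1, DIC minus control (x axis), of the 5 oxidase genes and 5 other parts of the oxidase; points are limma estimates, lines 95% intervals before adjustment, and the dotted line the median of all tested genes at -0.08. Cybb at 1.19 and Ncf1 at 0.91 lie farthest to the right, and Nrros at -0.47 farthest to the left.

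One control library decided whether the genes passed. Without control 2, limma called Cybb (log2 fold change 1.49, adjusted p = 0.0193), Ncf1 (1.15, adjusted p = 0.0251) and Ncf4 (0.53, adjusted p = 0.0418), which is 3 of 5. Under that setting 530 genes, or 3.93% of those tested, were called higher and 8.45% lower. Rac2 (0.46, adjusted p = 0.0513) and Cyba (0.36, adjusted p = 0.0808) did not pass. The scaling moved the unadjusted values as well. All 5 genes had an unadjusted limma p under 0.05 after quantile normalization, against 8.51% of tested genes that were higher at this level, and after rescaling without neutrophil genes, against 11.3%, and 0 of 5 were called after adjustment in either. Leaving out any other single library called 0 of 5, and the fold changes of Cybb then ran from 1.00 to 1.33. Over all genes, leaving out DIC 1 or control 4 called 0 in either direction.

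The order of levels was the same in all 6 libraries at the top: Cyba was highest and Rac2 second. The order of the 3 lower genes varied. Cybb was the lowest of the 5 in all 3 controls and in DIC 2, and Ncf4 was the lowest in DIC 1 and DIC 3. In DIC, Ncf1 averaged 349 ± 61.7 TPM, Cybb 316 ± 74.4 and Ncf4 297 ± 26.6 (n = 3, SD). In control, Ncf4 averaged 225 ± 33.9 TPM, Ncf1 189 ± 59.0 and Cybb 143 ± 56.2. Within libraries Cybb was below Ncf1 in all 6, with a log2 ratio of -0.05, -0.18 and -0.23 in DIC 1 to 3, against -0.73, -0.29 and -0.26 in controls 1, 2 and 4. Ncf1 was above Ncf4 in DIC 1 and DIC 3 and below it in DIC 2 and all 3 controls, with a log2 ratio of 0.37, -0.08 and 0.37 in DIC 1 to 3, against -0.28, -0.05 and -0.52 in controls 1, 2 and 4. Cyba averaged 944 ± 61.8 TPM in DIC and 798 ± 110 in control, and Rac2 624 ± 45.2 in DIC and 516 ± 112 in control. Among tested genes, Cyba ranked at percentiles 98.4 to 99.3 over the libraries, Rac2 at 97.1 to 98.7 and Cybb at 88.5 to 97.8. The 5 genes together took 0.237% to 0.270% of TPM in DIC and 0.165% to 0.229% in control.

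The levels of the 5 genes relative to each other were compared within libraries. On the log2 scale the ratio of Cybb to Rac2 was -0.65, -1.39 and -0.97 in DIC 1 to 3, against -2.04, -1.63 and -2.03 in controls 1, 2 and 4. The ratio of Cybb to Ncf4 was 0.32, -0.26 and 0.14 in DIC 1 to 3, against -1.01, -0.34 and -0.78 in controls 1, 2 and 4. Each ratio was higher in all 3 DIC libraries. The groups did not overlap for the 4 ratios that hold Cybb, for Cyba to Ncf1, for Cyba to Ncf4 or for Ncf1 to Rac2, which is 7 of 10 pairs that share their genes, against 22.4% of all pairs of tested genes above 0 in every library. Each of the 7 had an exact two-sided permutation p = 0.1, the smallest that 3 against 3 can give (0.143 with Benjamini-Hochberg adjustment over the 10 pairs), so that no pair could pass. The ratio of Cyba to Rac2 stayed close in all libraries, at 0.58, 0.60 and 0.62 in DIC 1 to 3, against 0.79, 0.52 and 0.61 in controls 1, 2 and 4 (exact permutation p = 0.8).

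Promoter windows from RefSeq, 250 bases before to 50 after the annotated start, were available for Cybb, Ncf1 and Cyba. All windows found for the oxidase genes are shown, with no choice by fold change. Capitals mark matches to any of 4 motifs searched on both strands: GAGGAAG (PU.1), TTCNNNGAA (STAT), TTGCGCAA (a C/EBP palindrome) and GGAANNGAA (a shortened composite of ETS and IRF factors, which shares its GGAA core with the PU.1 motif).
Cybb (GRCm38.p6, chrX:9469275-9469574, minus strand): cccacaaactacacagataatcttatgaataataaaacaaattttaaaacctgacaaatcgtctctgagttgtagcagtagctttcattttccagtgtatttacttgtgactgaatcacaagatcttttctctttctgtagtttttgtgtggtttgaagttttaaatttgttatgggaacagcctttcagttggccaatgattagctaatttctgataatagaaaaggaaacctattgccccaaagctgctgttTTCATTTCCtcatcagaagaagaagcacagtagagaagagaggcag
Ncf1 (GRCm38.p6, chr5:134229576-134229875, minus strand): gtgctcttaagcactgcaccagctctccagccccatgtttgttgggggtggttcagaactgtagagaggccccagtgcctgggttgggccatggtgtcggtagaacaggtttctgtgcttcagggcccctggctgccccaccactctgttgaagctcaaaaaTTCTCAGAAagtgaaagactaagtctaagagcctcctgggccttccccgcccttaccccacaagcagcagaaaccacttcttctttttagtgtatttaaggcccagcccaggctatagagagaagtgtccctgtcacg
Cyba (GRCm38.p6, chr8:122432891-122433190, minus strand): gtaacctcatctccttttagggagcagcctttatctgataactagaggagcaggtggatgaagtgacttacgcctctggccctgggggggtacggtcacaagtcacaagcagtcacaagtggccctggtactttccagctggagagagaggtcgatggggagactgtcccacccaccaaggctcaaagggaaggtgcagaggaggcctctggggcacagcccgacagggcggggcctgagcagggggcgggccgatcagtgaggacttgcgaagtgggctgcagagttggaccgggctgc
The Cybb window held 1 match to the ETS and IRF composite, on the opposite strand and beginning at position 5 counted from the annotated start, a motif found in 8.24% of 32851 windows. The Ncf1 window held 1 match to the STAT motif, beginning at position -88, a motif found in 8.3% of windows. The Cyba window held 0 matches. The PU.1 motif, present in 13.6% of windows, and the C/EBP palindrome, in 0.183%, matched none of the 3. The windows also differed in base composition, with a GC content of 35.3% for Cybb, 54% for Ncf1 and 60.7% for Cyba. A match describes these letters and shows no binding, and a missing match to these fixed patterns does not show that a site is absent.

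Of 5 other parts of the phagocyte oxidase that were examined, 3 had positive fold changes (median 0.21) and 0 were called by limma, with 1 at an unadjusted p under 0.05 in each direction. Hvcn1 encodes the voltage-gated proton channel that balances the charge moved by the oxidase. It was at 98.8, 95.2 and 107 TPM in DIC 1 to 3, against 60.3, 96.4 and 42.9 TPM in controls 1, 2 and 4 (log2 fold change 0.66 ± 0.27 SE, limma adjusted p = 0.237). Control 2 was inside the DIC range, and without it Hvcn1 passed (0.96, limma adjusted p = 0.0273). In that setting 3.93% of all tested genes were called higher. Nrros encodes an endoplasmic reticulum protein that limits the amount of gp91phox in mouse phagocytes. It was at 86.6, 107 and 93.7 TPM in DIC 1 to 3, against 146, 123 and 128 TPM in controls 1, 2 and 4 (log2 fold change -0.47 ± 0.13 SE, limma adjusted p = 0.212). All DIC libraries lay below all controls, as was so for 18.4% of all tested genes.

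Cybc1, whose product helps gp91phox and p22phox mature, had a log2 fold change of 0.24 (limma adjusted p = 0.554). Rap1a, a small GTPase found with the cytochrome, had one of 0.21 (limma adjusted p = 0.471). Rac1, the widely expressed Rac, averaged 350 ± 19.4 TPM in DIC and 382 ± 32.6 in control (n = 3 each, SD), a log2 fold change of -0.12 (limma adjusted p = 0.590) whose sign turned to 0.15 after quantile normalization and to 0.08 after rescaling without neutrophil genes. The median of all tested genes was 0.10 after that rescaling. The TPM ratio of Rac2 to Rac1 was 1.72, 2.04 and 1.62 in DIC 1 to 3, against 1.07, 1.87 and 1.19 in controls 1, 2 and 4. Control 2 was again inside the DIC range.

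The other NADPH oxidases were nearly silent. Of 9 genes for Nox1, Nox3, Nox4, the Duox enzymes and their partners, 1 passed the filter, and 4 were listed at 0 in all libraries. The gene tested was Nox4, a constitutively active family member, at 0.88 to 1.73 TPM in DIC and 0.31 to 1.42 TPM in control. Their summed level was at most 3.21 TPM in DIC and 2.93 TPM in control, against 2371 to 2695 TPM in DIC and 1649 to 2291 TPM in control for the 5 phagocyte oxidase genes.

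Receptors that trigger the burst had mostly positive fold changes: 14 of 16 tested, with a median of 0.71, while 0 were called by limma and 8 were higher at an unadjusted p under 0.05. Among all tested genes 6.43% were higher at that level. Itgam, the CD11b chain of complement receptor 3 and a gene of the lineage panel, averaged 122 ± 46.1 TPM in DIC and 31.7 ± 23.1 in control (n = 3 each, SD; log2 fold change 2.07, limma adjusted p = 0.212). Csf3r, the G-CSF receptor, averaged 131 ± 31.3 TPM in DIC and 72.1 ± 16.1 in control. Ltb4r1, a leukotriene B4 receptor, averaged 193 ± 17.0 TPM in DIC and 126 ± 27.7 in control. For these 3 genes, named for the lowest p of the 16, the groups did not overlap. Upward separation held for 5 of the 16 and for 7.08% of all tested genes. Without control 2 limma called 5 of the 16 as higher, against 3.93% of all tested genes. With the late neutrophil score (the mean log2(TPM + 1) of the 8 late neutrophil genes) as a covariate 7 of 16 were positive (median -0.06). With the secondary granule score instead, the same mean over the 6 secondary granule genes, 14 of 16 were positive (median 0.31).

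Signalling genes were less uniform. Of 15 kinases and lipid enzymes upstream of the oxidase, 11 had positive fold changes (median 0.17) and 0 were called by limma, with 3 higher and 0 lower at an unadjusted p under 0.05. The shares of all tested genes at that level were 6.43% higher and 13.8% lower. Prkcb, a protein kinase C that phosphorylates p47phox, was at 62.2, 50.2 and 53.0 TPM in DIC 1 to 3, against 18.3, 40.6 and 21.2 TPM in controls 1, 2 and 4 (log2 fold change 1.10 ± 0.28 SE, limma adjusted p = 0.212). Its fold change was close to that of Cybb. Without control 2 Prkcb passed (1.43, limma adjusted p = 0.0126), in a setting where 3.93% of all tested genes were called higher. With the late neutrophil score as a covariate 3 of the 15 were positive (median -0.12), and with the secondary granule score 6 were (median -0.10). Irak4 and Syk, kinases of Toll-like and Fc receptor signalling, had log2 fold changes of 0.48 and 0.49 (limma adjusted p = 0.235 and 0.239).

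Of 13 regulators of Rac and related small GTPases, 9 had positive fold changes (median 0.05) and 0 were called by limma, with 1 at an unadjusted p under 0.05 in each direction. Arhgdia, a GDP dissociation inhibitor that holds Rac and related small GTPases in the cytosol, averaged 320 ± 43.8 TPM in DIC and 464 ± 81.5 in control (n = 3 each, SD; log2 fold change -0.53, limma adjusted p = 0.212). Dock5 and Dock2, exchange factors for Rac, had log2 fold changes of 0.59 and 0.40 (limma adjusted p = 0.244 and 0.332). Of the 13, 12 were positive after rescaling without neutrophil genes (median 0.24), and the median was 0.27 after quantile normalization. As a covariate, the late neutrophil score left 6 positive (median -0.07) and the secondary granule score 3 (median -0.08). The rescaling also moved the median of all tested genes, from -0.08 to 0.10. Without control 2 limma called 1, Dock5, as higher, against 3.93% of all tested genes.

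Enzymes that consume superoxide or peroxide mostly had negative fold changes: 11 of 12, with a median of -0.26 and 0 called by limma, while 1 was higher and 4 were lower at an unadjusted p under 0.05. Among all tested genes 6.43% were higher and 13.8% lower at that level, and 41.5% had a positive fold change. Sod1, the cytosolic superoxide dismutase, averaged 79.2 ± 8.96 TPM in DIC and 137 ± 40.9 in control (n = 3 each, SD; log2 fold change -0.74, limma adjusted p = 0.212). Prdx1, a cytosolic peroxiredoxin, averaged 348 ± 12.6 TPM in DIC and 560 ± 139 in control. Prdx5 was the exception, at 624 ± 91.8 TPM in DIC and 404 ± 85.4 in control. The split of this list depended on the scaling, with 4 positive and 8 negative after quantile normalization. Without control 2 limma called 1 higher and 4 lower, against 3.93% and 8.45% of all tested genes.

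Enzymes that supply NADPH had 4 positive fold changes of 6 tested (median 0.18), with 0 called by limma and 1 at an unadjusted p under 0.05. G6pdx, glucose-6-phosphate dehydrogenase, the entry to the pentose phosphate pathway, averaged 260 ± 41.5 TPM in DIC and 187 ± 42.7 in control (n = 3 each, SD; log2 fold change 0.49, limma adjusted p = 0.244), with no overlap between groups. Upward separation held for 7.08% of all tested genes. Nadk, the NAD kinase, and Pgd, the third enzyme of that pathway's oxidative branch, had log2 fold changes of 0.38 and 0.22 (limma adjusted p = 0.289 and 0.405). All 6 were positive after rescaling without neutrophil genes (median 0.38), and 5 were after quantile normalization (median 0.46). The median of all tested genes was 0.10 after that rescaling and -0.04 after quantile normalization, against -0.08 without either.

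Transcription factors of myeloid cells, several of them known to act on oxidase genes, mostly had negative fold changes. Of 12 tested, 9 had negative fold changes (median -0.21), 0 were called by limma and 3 were lower at an unadjusted p under 0.05. Of all tested genes, 41.5% had a positive fold change and 13.8% were lower at that level. Irf8, which binds the CYBB promoter together with PU.1 in human cells, was at 48.7, 75.5 and 61.1 TPM in DIC 1 to 3, against 184, 94.5 and 161 TPM in controls 1, 2 and 4 (log2 fold change -1.20 ± 0.27 SE, limma adjusted p = 0.212). Irf1 averaged 39.9 ± 2.05 TPM in DIC and 86.9 ± 44.3 in control, and Cebpb 55.7 ± 1.62 TPM in DIC and 96.2 ± 26.8 in control (n = 3 each, SD). All 3 genes, named for the lowest p of the 12, were lower in every DIC library than in any control. That held for 4 of the 12 and for 18.4% of all tested genes. After rescaling without neutrophil genes 6 of the 12 were positive and 6 negative, with the median of all tested genes at 0.10. Without control 2 limma called 1 higher and 3 lower, against 3.93% and 8.45% of all tested genes.

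**Figure D3:**
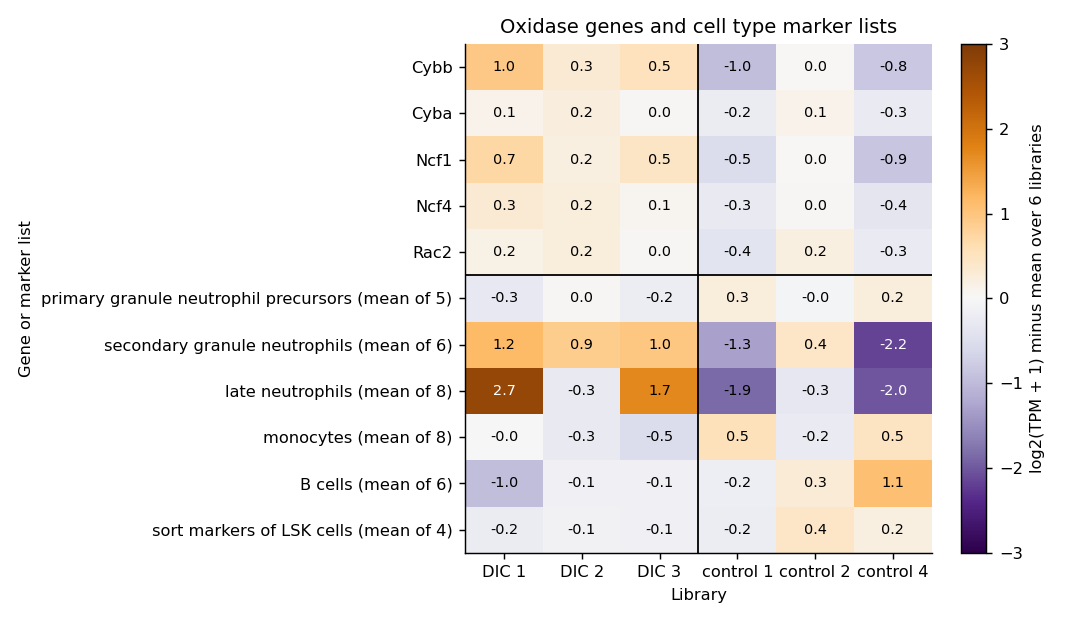
log2(TPM + 1) minus its mean over the 6 libraries (colour and printed value) for the 5 oxidase genes and the mean of 6 marker lists (rows), with DIC libraries left of controls. Cybb and Ncf1 are lowest in controls 1 and 4 and near 0 in control 2, and the means of the secondary granule and late neutrophil lists are also lowest in controls 1 and 4.

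Secondary granule and late neutrophil genes, like the oxidase genes, had positive fold changes, while primary granule genes did not. All 6 secondary granule genes, which mark myelocytes and later cells, had positive fold changes (median 1.94, 0 called by limma, 6 higher at an unadjusted p under 0.05), and their summed level was 3.84% to 4.28% of TPM in DIC and 0.581% to 2.98% in control. All 8 late neutrophil genes were also positive (median 2.88, 0 called by limma, 8 higher at an unadjusted p under 0.05). The share of all tested genes that were higher at that level was 6.43%. Without control 2 limma called all 6 secondary granule genes (median 2.60) and 4 of the 8 late neutrophil genes (median 3.40) as higher, against 3.93% of all tested genes. None of the markers in either list was at 0. The 5 primary granule genes of earlier precursors were all negative, with a median of -0.18 and a summed level of 2.57% to 3.22% of TPM in DIC and 2.99% to 3.41% in control. The median of all tested genes was -0.08, and 41.5% of them were positive. After quantile normalization 2 of the 5 primary granule genes were positive (median -0.29). As a covariate, the late neutrophil score left 3 positive (median 0.10) and the secondary granule score 1 (median -0.04). Within DIC the oxidase genes did not all follow the late neutrophil genes, whose mean log2(TPM + 1) was 10.7, 7.72 and 9.70 in DIC 1 to 3. Cybb and Ncf1 were also lowest in DIC 2. Ncf4 was lowest in DIC 3, and Cyba and Rac2 were highest in DIC 2.

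Markers of other cells known to use the oxidase are set here against all tested genes, of which 41.5% had a positive fold change. Of 8 monocyte genes, 6 had negative fold changes (median -0.48), with a summed level of 4950 to 5295 TPM in DIC and 4640 to 7613 TPM in control. Most of that sum was Ly6c2, at 4754 to 4994 TPM in DIC and 4382 to 7026 TPM in control. The monocyte sum of control 2 lay below that of every DIC library. All 6 tested B cell genes of 8 were negative (median -0.72), at 104 to 192 TPM in DIC and 207 to 467 TPM in control. Of 7 tested macrophage and dendritic cell genes 4 were negative (median -0.26), at 93.5 to 107 TPM in DIC and 110 to 131 TPM in control. That split was near the one of all tested genes. Among the remaining marker lists, the 6 erythroid genes were all positive (median 0.97), as were 4 of 5 tested lineage panel genes (median 1.18), of which Itgam and Ly6g belong to granulocytes. The erythroid sum was 420, 109 and 260 TPM in DIC 1 to 3, against 137, 110 and 139 TPM in controls 1, 2 and 4. In that sum DIC 2 was not above the controls. The 6 basophil and mast cell genes were all negative (median -1.53), as were the 3 tested of 7 T and NK cell genes (median -0.85) and 3 of 4 sort markers (median -0.39). The 4 tested of 5 eosinophil genes were evenly split (median 0.01). In these lists 0 genes were called by limma with all 6 libraries. Without control 2 it called 3 of 8 monocyte genes and 3 of 6 basophil and mast cell genes as lower and 2 of 5 lineage panel genes as higher. Of all tested genes, 8.45% were then called lower and 3.93% higher. With the secondary granule score as a covariate 6 of 8 monocyte genes were positive (median 0.08), and with the late neutrophil score 2 of 8 were (median -0.26). Of the 6 erythroid genes, 3 were positive with the late neutrophil score (median -0.04) and all 6 with the secondary granule score (median 1.10).

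With the mean of the late neutrophil genes as a covariate, the log2 fold changes were 0.36 for Cybb, 0.23 for Ncf1, 0.23 for Ncf4, 0.18 for Cyba and 0.14 for Rac2 (limma adjusted p = 1.00 each). With the mean of the secondary granule genes in its place, an alternative added after seeing the data, they were 0.42 for Cybb, 0.22 for Ncf1, 0.09 for Ncf4, -0.03 for Cyba and -0.09 for Rac2 (limma adjusted p = 0.988 for the first 3 and for Rac2, and 0.993 for Cyba). Both scores were higher in every DIC library than in any control, so the group and the granulocyte content of the libraries cannot be told apart in these fits.

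**Figure D4:**
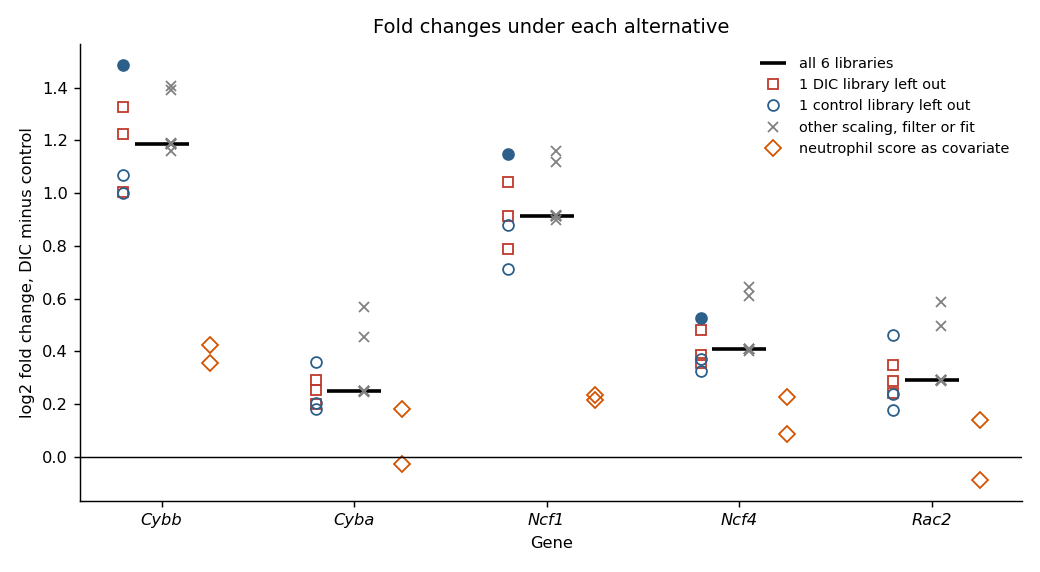
Log2 fold change, DIC minus control (y axis), of each oxidase gene under every alternative; the black bar is the fit with all 6 libraries, squares and circles leave out 1 DIC or 1 control library, crosses use another scaling, filter or fit, and diamonds add a neutrophil score as a covariate. Filled symbols passed an adjusted p of 0.05, which happened for Cybb, Ncf1 and Ncf4 without control 2, and the diamonds lie lowest for each gene.

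Genes whose profiles over the 6 libraries were most like those of the oxidase genes were found by the root mean square difference of centred log2(TPM + 1), among 8756 other genes with a mean of at least 5 TPM. For Cybb they were F5, coagulation factor V (difference 0.0855), Alox5, the 5-lipoxygenase of leukotriene synthesis (0.0966), and Pygl, a glycogen phosphorylase (0.103). Alox5 was at 86.5, 56.3 and 65.4 TPM in DIC 1 to 3, against 21.2, 53.0 and 26.1 TPM in controls 1, 2 and 4. For Ncf1 they were Ehd1, an endocytic recycling protein (0.0379), Zbtb7b, a zinc finger factor (0.0598), and Pik3cb, a phosphoinositide 3-kinase (0.0856). For Ncf4 they were Ptk2b, a tyrosine kinase (0.0554), S1pr4, a sphingosine 1-phosphate receptor (0.0603), and Tmem63a (0.0618). Those of Cyba were Cerk, the ceramide kinase, Smpd1, acid sphingomyelinase, and Sec22a (0.0328 to 0.0446). Those of Rac2 were Fam160b2, Zfp317 and the kinase Taok2 (0.0368 to 0.0578).

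Among the 5 genes themselves this difference also depends on how much each gene varies. The SD over the 6 libraries was 0.19 for Cyba, 0.26 for Rac2 and 0.27 for Ncf4, against 0.59 for Ncf1 and 0.76 for Cybb. Small differences among the first 3 therefore do not show that they track each other better than Cybb and Ncf1 do. Cyba and Rac2 differed by 0.0808, Cyba and Ncf4 by 0.0995, and Ncf4 and Rac2 by 0.110 on this log2 scale. Cybb and Ncf1 differed by 0.209, and Cybb and Cyba by 0.553, the widest of the 10 pairs.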

How the data were processed

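RNA of sorted marrow cells was extracted with TRIzol and 10 ng made into SMART-Seq libraries read as pairs of 150 bases, per the labels' protocols. The authors deposited 1 table of TPM values for 6 libraries. The submitters' processing notes name fastp 0.19.5, HISAT2 2.1.0, StringTie 2.1.2 and the build GRCm39; the annotation release they used was not given in the sources used here. StringTie divides reads between overlapping or near-identical genes. Symbols came from the GRCm38 annotation and matched 52081 of 56750 identifiers. Promoters came from RefSeq for GRCm38.p6, which differs from the submitters' build; 3 of the 5 genes matched.

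DIC was compared with control on log2(TPM + 1) with limma 3.58.1 in R 4.3.3 (group as the single term, mean-variance trend, two-sided, Benjamini-Hochberg over 13496 genes, threshold 0.05). Such fold changes understate those of low genes. The fit was tested on simulated data. The members and the 21 gene lists, 9 of the oxidase and the rest cell markers, were chosen with earlier results of these data known. Named genes were all members and other parts, in each further oxidase list the genes past the threshold or else the 3 of lowest p, and for each member the 3 genes of nearest profile. Control columns 1 and 4 carry the group but could not be tied to single samples, because the title and description of 1 sample hold different numbers. Alternatives covered pseudocount, filter, scaling, fit, covariates and single libraries. One entry of the lists is not reported here. Some genes, such as Mpo and Itgam, stand in 2 lists. TPM carries no depth, so no counting interval is given.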

Additional observations from a re-analysis of the deposited data

How the results depend on the processing

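Of 16 alternatives, all kept Cybb, Ncf1 and Ncf4 positive, and 15 kept Cyba and Rac2 positive. The exception was the secondary granule score as a covariate, which turned Cyba to -0.027 and Rac2 to -0.088; the cause was not tested. With 1 library left out, log2 fold changes ran from 1.00 to 1.49 for Cybb, 0.71 to 1.15 for Ncf1, 0.33 to 0.53 for Ncf4, 0.18 to 0.36 for Cyba and 0.18 to 0.46 for Rac2, and the members called ran from 0 to 3, the 3 without control 2. Adjusted p over all alternatives ran from 0.0193 to 1.00 for Cybb, 0.0251 to 1.00 for Ncf1 and 0.0418 to 1.00 for Ncf4. Over all genes, 5 were higher and 3 lower; with 1 library left out the counts ran from 0 to 530 and from 0 to 1141. The higher count was 2 with a pseudocount of 0.1 and 3 with a pseudocount of 5; without a filter on low values and with either neutrophil score as a covariate both counts were 0; and the lower count was 1 after quantile normalization. Rescaling without neutrophil genes moved the median of all genes by 0.18, to 0.10, and the members to 0.45 to 1.39; after quantile normalization they were 0.57 to 1.41. No paired analysis was possible because only 1 control column could be tied to a numbered sample, so the groups share fewer than 2 numbers; the planned replicate block was not run. The unknown depth limits what can be said of genes near the filter, such as Nox4.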
